A study of Homo sapiens with 2 samples.

Results

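The genes described here are 10 components of the switch that lets a cell leave G1 and start copying its DNA: 7 inhibitors of cyclin-dependent kinases (CDKN1A, CDKN1B, CDKN1C, CDKN2A, CDKN2B, CDKN2C and CDKN2D), 2 D-type cyclins (CCND1 and CCND3) and the kinase CDK4. They were chosen by gene name and found by their Entrez Gene numbers among 16085 genes and loci listed in either library. All 10 were listed in both libraries and all 10 were measured, which here means an FPKM (fragments per kilobase of transcript, scaled to library size) of at least 1 in either library, as for 12274 genes and loci in all.

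RNA was sequenced after poly(A) selection from 1 shZEB1 library and 1 shCtrl library. Both came from cells labelled MDA-MB-231, an established line of human triple-negative breast carcinoma. The shZEB1 cells carried a knockdown of ZEB1, a transcriptional repressor of epithelial genes, and the shCtrl cells are their labelled control. The labels give no hairpin sequence, vector, clone or time after transduction, and the series asked how ZEB1 in tumour cells steers macrophages. With no replicate, no test between the conditions could be made. Each difference below is therefore one between 2 libraries, with an unknown spread between cultures.

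D-type cyclins bind CDK4 or its relative CDK6 and, in response to growth signals, start to phosphorylate the retinoblastoma protein, which releases E2F transcription factors. The INK4 inhibitors (CDKN2A to CDKN2D) bind CDK4 and CDK6 and keep cyclins off them. The Cip/Kip inhibitors (CDKN1A to CDKN1C) bind cyclin-kinase complexes more widely and hold back CDK2. In melanoma lines CDKN2A is known to be lost often, commonly with its neighbours CDKN2B and MTAP, and CCND1 or CDK4 can be amplified. MDA-MB-231 is likewise known for a deletion that takes in CDKN2A.

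CDKN2A encodes 2 unrelated proteins from separate first exons. The INK4 protein p16 starts at the downstream promoter, and ARF, which is no kinase inhibitor, starts at the upstream one. The deposited value is 1 number per gene, so p16 and ARF transcripts cannot be told apart. Both start regions are shown because every CDKN2A value below sums over them. CDKN2B is shown as their neighbour, which encodes p15, and CCND3 as the gene with the largest absolute log2 ratio of the 10. CCND3 has further annotated starts, and only its upstream one is shown. The windows run from 250 bases before to 50 bases after an annotated start, 5′ to 3′ on the gene's own strand, from RefSeq on GRCh38.p14. Capitals mark the GC box GGGCGG (or CCGCCC), the E-box CAGGTG (or CACCTG) that ZEB1 is known to bind, and the E-box CACGTG.
CDKN2A upstream start, chr9:21995275-21995574, minus strand: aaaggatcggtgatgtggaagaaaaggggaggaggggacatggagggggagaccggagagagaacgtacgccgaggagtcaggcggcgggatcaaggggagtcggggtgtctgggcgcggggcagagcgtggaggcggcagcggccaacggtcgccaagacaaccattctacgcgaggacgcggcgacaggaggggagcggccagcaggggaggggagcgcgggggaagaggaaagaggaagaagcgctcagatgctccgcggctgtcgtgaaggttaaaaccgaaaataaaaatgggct
CDKN2A downstream start, chr9:21974808-21975107, minus strand: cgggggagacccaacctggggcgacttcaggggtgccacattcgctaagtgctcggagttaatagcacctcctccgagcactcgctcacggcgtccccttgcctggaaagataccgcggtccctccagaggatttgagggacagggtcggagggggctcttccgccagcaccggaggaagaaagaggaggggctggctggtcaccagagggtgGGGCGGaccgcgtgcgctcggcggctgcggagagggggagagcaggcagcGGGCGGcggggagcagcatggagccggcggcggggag
CDKN2B, chr9:22009256-22009555, minus strand: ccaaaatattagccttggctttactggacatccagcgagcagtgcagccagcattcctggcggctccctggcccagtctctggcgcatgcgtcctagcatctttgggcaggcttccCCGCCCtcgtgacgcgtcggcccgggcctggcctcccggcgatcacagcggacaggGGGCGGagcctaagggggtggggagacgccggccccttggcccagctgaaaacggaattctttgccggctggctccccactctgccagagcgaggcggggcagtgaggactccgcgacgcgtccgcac
CCND3 upstream start, chr6:42048639-42048938, minus strand: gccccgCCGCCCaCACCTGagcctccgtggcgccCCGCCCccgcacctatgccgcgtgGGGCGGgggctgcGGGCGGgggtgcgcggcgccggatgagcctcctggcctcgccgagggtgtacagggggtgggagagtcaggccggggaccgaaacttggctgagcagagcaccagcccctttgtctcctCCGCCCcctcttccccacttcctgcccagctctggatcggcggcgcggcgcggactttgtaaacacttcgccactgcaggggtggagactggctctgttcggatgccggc

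RefSeq windows matched 8 of the 10 genes, with 13 starts in all. CCND1 and CDKN1C had none in the table used. The ZEB1-type E-box, searched on both strands, was found in 1 of the 13 windows, the upstream start of CCND3, where it begins at position -237, next to a GC box. Of all 35116 windows in the table, 20.6% held this E-box. The other CCND3 windows held none, and the values per gene do not tell which CCND3 start was used. GC boxes were found in 10 of the 13 windows, against 44.95% of all windows. The 13 windows had a median GC content of 67.3%, against 58.7% over all windows. CACGTG lay in 3 windows, 2 of CDKN2C and that of CDK4, against 7.26% of all windows. Of 3 E2F-type sequences searched on both strands (TTTCCCGC, TTTGGCGC and TTTCGCGC), none was in these windows, while 2.74% of all windows held one. A match here is a run of letters and does not show binding.

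The libraries held 8441491 assigned reads in shZEB1 and 8740584 in shCtrl. ZEB1, the targeted gene, had 15 reads in shZEB1 and 46 in shCtrl, and its read ratio was 0.338 (95% interval 0.175 to 0.616). Its FPKM was 0.31 in shZEB1 and 0.88 in shCtrl, under the minimum of 1 in both, so ZEB1 was not among the measured genes. Melanocyte genes, which the line label would not lead one to look for, were abundant. An FPKM of 10 or more was reached in shZEB1 and shCtrl alike by 12 of 16 melanocyte markers, whose summed FPKM was 1441 in shZEB1 and 1908 in shCtrl. The same level was reached by 8 of 16 markers of basal-type breast lines. Among these, VIM had 1695 FPKM in shZEB1 and 1946 in shCtrl, CD44 134 in shZEB1 and 147 in shCtrl, and KRT18 58.7 in shZEB1 and 40.5 in shCtrl. Others lay far below that level. EGFR had 0.65 FPKM in shZEB1 and 0.52 in shCtrl, KRT7 1.67 in shZEB1 and 0.74 in shCtrl, and F3 1.82 in shZEB1 and 0.87 in shCtrl. KRT14 had 0.07 in shZEB1 and 0 in shCtrl, and KRT19 and KRT5 were in neither file. How specific the abundant markers are to breast lines was not tested. Of 18 markers of blood, vessel, stromal and other epithelial cells, 2 were measured and 8 were in neither file, PTPRC and EPCAM among them, and their summed FPKM was 6.59 in shZEB1 and 20.05 in shCtrl, of which CD68, a lysosomal protein abundant in macrophages, gave 4.12 in shZEB1 and 18.7 in shCtrl. The part of these marker differences in the results below was not tested.

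**Figure D1:**
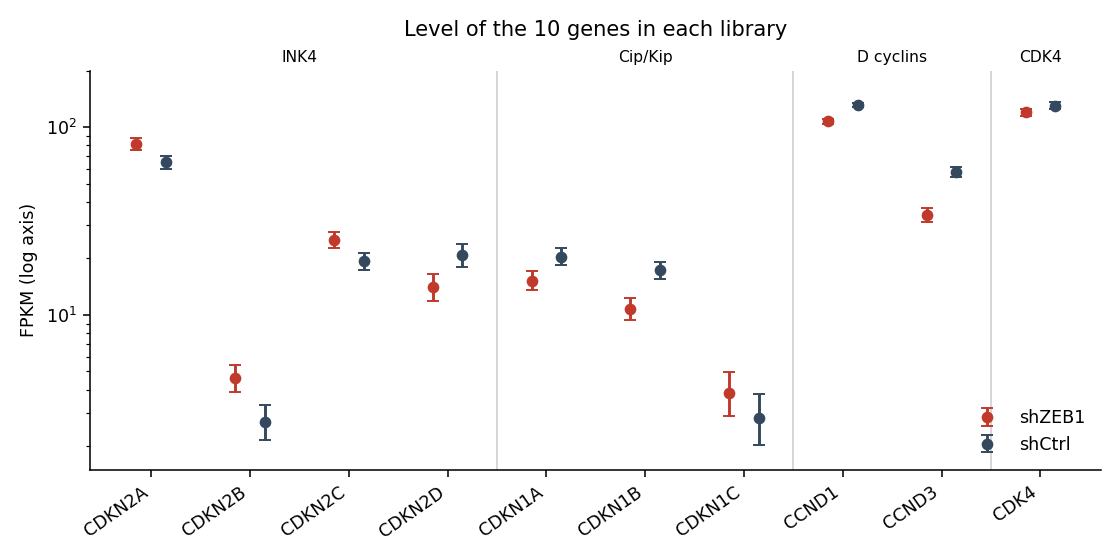
FPKM (log axis) of the 10 genes in the shZEB1 library (red, left of each pair) and the shCtrl library (blue), 1 library each. Bars are 95% exact Poisson intervals of the reads, which cover counting error only. CDK4, CCND1 and CDKN2A lie highest in both libraries, and CDKN1C and CDKN2B lowest.

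CDKN2A, the INK4 gene most often lost in melanoma lines and known to be deleted in MDA-MB-231, was among the more abundant transcripts. Its FPKM was 81.2 in shZEB1, from 758 reads, and 65.3 in shCtrl, from 629 reads. In shZEB1 92.7% of measured genes had a lower FPKM, and in shCtrl 89.8%. CDKN2A ranked 3 among the 10 in both libraries, and its read ratio was 1.25 (95% interval 1.12 to 1.39). The gene (Entrez Gene 1029) spans chr9:21967752-21995324. The file gives 7 transcripts for it, 3 of them assembled by the authors. Of its exonic bases 7.88% overlap the antisense gene CDKN2B-AS1, which was not listed in either file. Whether strand was used in counting is not given in the sources used here, so reads of the 2 genes cannot be told apart there.

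CDKN2B, which encodes p15 and is known as a gene induced by TGF-beta, was the lowest INK4 gene and differed most within that family. It had 4.60 FPKM in shZEB1, from 149 reads, and 2.69 in shCtrl, from 90 reads. The level was 1.71-fold higher in shZEB1, with an interval of 1.31 to 2.25 for the ratio. Of the 50-base stretches in its transcripts 0.765% also occur in CDKN2A. The FPKM of CDKN2A was 17.6 times that of CDKN2B in shZEB1 and 24.3 times in shCtrl. How many CDKN2B reads could belong to this more abundant neighbour was not tested. CDKN2B (Entrez Gene 1030, chr9:22002903-22009313) contributed 3.68% of the summed INK4 FPKM in shZEB1 and 2.49% in shCtrl.

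CDKN2C encodes p18. Its FPKM was 25.1 in shZEB1, from 434 reads, and 19.3 in shCtrl, from 333 reads. The read ratio was 1.35 (interval 1.17 to 1.56), while the ratio of FPKM was 1.30, because the gene length that the authors used was 3.02% longer in shZEB1. CDKN2C (Entrez Gene 1031, chr1:50960745-50974634) was thus higher in shZEB1, like CDKN2A and CDKN2B, as far as counting error goes.

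CDKN2D, which encodes the p19 member of the INK4 family, lay the other way. It had 14.1 FPKM in shZEB1, from 141 reads, and 20.8 in shCtrl, from 214 reads. The shZEB1 level was 1.47-fold lower, and the read ratio was 0.682 (interval 0.548 to 0.848). This interval did not overlap that of any of the other 3 INK4 genes. The ratio of CDKN2C to CDKN2D FPKM was 1.79 in shZEB1 and 0.929 in shCtrl, where the counting intervals of the 2 levels overlapped. CDKN2D (Entrez Gene 1032) lies at chr19:10566460-10568979.

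Summed over the 4 INK4 genes, FPKM was 125.0 in shZEB1 and 108.0 in shCtrl. CDKN2A made up 64.9% of that sum in shZEB1 and 60.4% in shCtrl. CDKN2D held 11.3% of it in shZEB1 and 19.2% in shCtrl, the widest move among the 4 shares.

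Of the Cip/Kip inhibitors, CDKN1A and CDKN1B were lower in shZEB1. CDKN1A encodes p21, a Cip/Kip inhibitor known to be induced by DNA damage. Its FPKM was 15.3 in shZEB1, from 274 reads, and 20.5 in shCtrl, from 380 reads, with a read ratio of 0.747 (interval 0.637 to 0.874). CDKN1A (Entrez Gene 1026, chr6:36676463-36687332) shares 3.21% of its 50-base stretches with the long non-coding gene DINOL, which was not listed.

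CDKN1B encodes p27, which is known to be controlled largely at the level of protein breakdown. It had 10.8 FPKM in shZEB1, from 227 reads, and 17.3 in shCtrl, from 375 reads. This 1.60-fold lower level (read ratio 0.627, interval 0.529 to 0.741) was the widest fold difference among the 7 inhibitors apart from that of CDKN2B. No 50-base stretch of CDKN1B (Entrez Gene 1027, chr12:12717368-12722369) occurs in another annotated transcript, and its file entry holds 1 transcript, so its value does not depend on sharing reads between gene models.

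CDKN1C encodes p57, an imprinted gene of the same family. It had the lowest FPKM of the 7 inhibitors in shZEB1, with 3.82 from 58 reads, against 2.81 FPKM from 43 reads in shCtrl. Its read ratio of 1.397 had an interval of 0.925 to 2.12, which included 1, so a difference was not detectable at this depth. CDKN1C (Entrez Gene 1028) lies at chr11:2883218-2885775. The 3 Cip/Kip genes summed to 29.9 FPKM in shZEB1 and 40.6 in shCtrl. The INK4 sum, in which ARF transcripts of CDKN2A cannot be set apart, was 4.18 times the Cip/Kip sum in shZEB1 and 2.66 times in shCtrl.

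CCND1, the cyclin gene that answers most directly to growth factor signals, was at the top of the 10 together with CDK4. Its FPKM was 107 in shZEB1, from 3859 reads, and 131 in shCtrl, from 4876 reads. At 0.819, with bounds of 0.785 and 0.855, its read ratio had the narrowest interval of the 10 in relative terms. CCND1 (Entrez Gene 595) spans chr11:69641156-69654474. Exons of LTO1 on the opposite strand cover 10.3% of its exonic bases, but LTO1 had 178 reads in shZEB1 and 177 in shCtrl, far fewer than CCND1.

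CCND3, the D-type cyclin best known from blood cells, had the largest absolute log2 ratio of the 10 genes, at -0.74. Its FPKM was 34.1 in shZEB1, from 587 reads, and 57.7 in shCtrl, from 1030 reads. The level was 1.69-fold lower in shZEB1, with a read ratio of 0.590 (interval 0.532 to 0.654). The log2 ratio adds 1 to each FPKM, and without that addition the fold of CDKN2B, at 1.71, was slightly larger. The counting intervals of CCND1 and CCND3 did not overlap, and CCND3 was lower by the larger fold. The ratio of CCND1 to CCND3 FPKM was 3.15 in shZEB1 and 2.27 in shCtrl. CCND3 (Entrez Gene 896) spans chr6:41934933-42050035.

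CCND2, the other D-type cyclin gene and not among the 10, was in neither file. D-type cyclin FPKM summed to 141 in shZEB1 and 189 in shCtrl, and CCND3 supplied 24.1% of it in shZEB1 and 30.6% in shCtrl.

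CDK4, the kinase that these cyclins activate, differed least of the 10. It had 120 FPKM in shZEB1, from 2001 reads, and 131 in shCtrl, from 2238 reads. The read ratio was 0.926 (interval 0.871 to 0.984), and this interval included 1 when the libraries were scaled by TPM or the interval was set at 99%. Exons of TSPAN31, on the opposite strand, cover 43.2% of the exonic bases of CDK4 (Entrez Gene 1019, chr12:57747727-57752310), so the CDK4 value is uncertain without a known strand setting. TSPAN31 had 192 reads in shZEB1 and 261 in shCtrl.

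CDK6, the other kinase bound by D-type cyclins, lay opposite to CDK4. Its FPKM was 17.1 in shZEB1, from 1684 reads, and 9.93 in shCtrl, from 1013 reads, with a read ratio of 1.72 (interval 1.59 to 1.86). CDK6 made up 12.4% of the summed CDK4 and CDK6 FPKM in shZEB1 and 7.07% in shCtrl. That sum was 137 FPKM in shZEB1 and 140 in shCtrl.

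**Figure D2:**
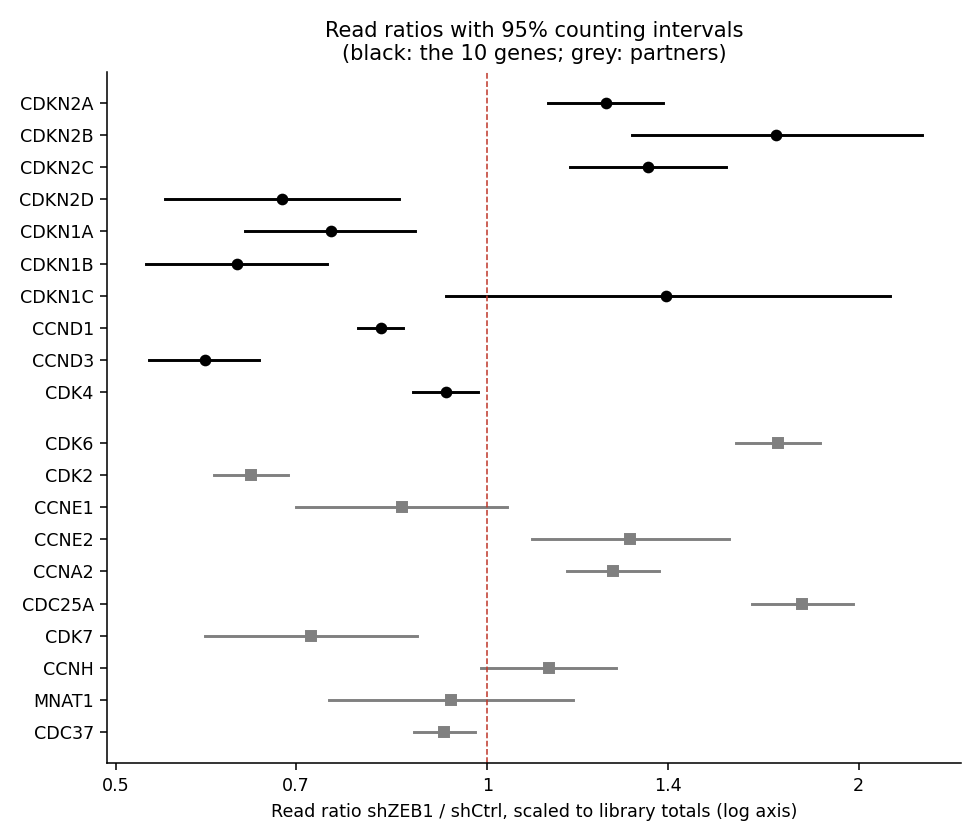
Ratio of reads in shZEB1 over shCtrl, scaled to library totals (log axis), with 95% exact binomial intervals, for the 10 genes (black circles) and 10 measured kinase and cyclin partners (grey squares). The dashed line marks equal levels. CDKN2A, CDKN2B and CDKN2C lie to its right, CDKN2D, CDKN1A, CDKN1B, CCND1, CCND3 and CDK4 to its left, and the bar of CDKN1C crosses it.

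The order of the levels differed little between the libraries. In shZEB1, CDK4 stood above CCND1, then came CDKN2A, CCND3, CDKN2C, CDKN1A, CDKN2D, CDKN1B, CDKN2B and CDKN1C. The counting intervals of CDKN1A and CDKN2D overlapped, as did those of CDKN2D and CDKN1B and those of CDKN2B and CDKN1C. In shCtrl, CCND1 and CDK4 could not be ranked within counting error, and neither could CDKN2A and CCND3. CDKN2D, CDKN1A, CDKN2C and CDKN1B formed a run in which each neighbouring pair overlapped. CDKN1C and CDKN2B, the lowest pair, overlapped too.

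By the size rule, 0 of the 10 genes were counted as higher and 0 as lower. That rule asks for a log2((FPKM shZEB1 + 1)/(FPKM shCtrl + 1)) of at least 1 or at most -1 and a read interval that excludes 1. Among all measured genes it counted 0.937% as higher and 1.61% as lower. With edgeR TMM scaling of counts the numbers over all genes were 308 higher and 333 lower, against 115 and 198 here, and still 0 of the 10 were counted. That setting also used a smaller pseudocount, added to reads rather than FPKM. A pseudocount of 0.1 FPKM without rescaling gave 311 higher and 294 lower. No p-value stands behind either count, since 1 library per group allows no test. The read interval lay above 1 for 3 of the 10 genes and below 1 for 6. Over all measured genes it lay above 1 for 27.9% and below 1 for 21.4%, that is 3425 and 2626 genes, and with TMM scaling for 2804 and 3225. Genes with many reads have narrow intervals, and for 8 of the 10 FPKM was 10 or more in shZEB1 and in shCtrl. The median log2 ratio of the 10 was -0.20, against 0.02 over all measured genes.

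**Figure D3:**
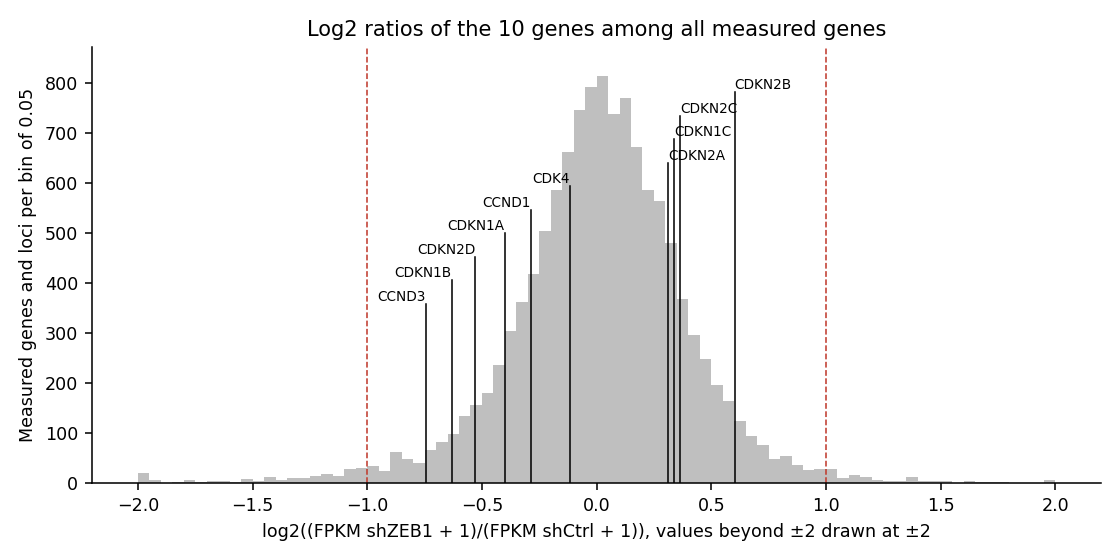
Histogram of log2((FPKM shZEB1 + 1)/(FPKM shCtrl + 1)) over 12274 measured genes and loci, in bins of 0.05, with values beyond 2 or -2 drawn at the edge. Black lines mark the 10 genes and dashed red lines the size rule's limits of 1 and -1. All 10 lie inside the limits, from CCND3 at -0.74 to CDKN2B at 0.60.

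Seen against all measured genes, CCND3 and CDKN1B lay towards the lower edge and CDKN2B towards the upper. A log2 ratio below that of CCND3 was found for 3.46% of measured genes, and below that of CDKN1B (-0.63) for 4.89%. For CDKN2D, at -0.53, the share was 7.01%, and for CDKN1A, at -0.40, it was 11.1%. At the other end, 94.98% of measured genes had a lower log2 ratio than CDKN2B (0.60), 85.6% than CDKN2C (0.37) and 81.5% than CDKN2A (0.31). CDK4, at -0.12, was well inside the bulk, since 70.7% of measured genes had a larger absolute log2 ratio.

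CDK2 and the other kinase and cyclin partners outside the 10 genes showed no common direction. CDK2, the kinase that acts after CDK4 and CDK6, had 69.7 FPKM in shZEB1 and 109 in shCtrl (read ratio 0.644, interval 0.601 to 0.690). CDC25A, the phosphatase that activates it, had 39.3 FPKM in shZEB1 and 21.9 in shCtrl, a read ratio of 1.80 (interval 1.64 to 1.98). CDK7, the kinase that phosphorylates CDK2 on its activation loop, had 14.1 FPKM in shZEB1 and 19.6 in shCtrl (interval 0.591 to 0.877). Of 10 measured partners, CDK6 included, the interval lay above 1 for 4 and below 1 for 3. Over all measured genes the shares were 27.9% and 21.4%. The median log2 ratio of the partners was -0.01, and 0.04 with TPM.

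Pocket proteins and E2F factors, through which the cyclin-kinase pair acts, were present in both libraries. RB1, the retinoblastoma gene, had 18.9 FPKM in shZEB1 and 18.1 in shCtrl, and its interval of 0.941 to 1.15 included 1. RBL2, which encodes the pocket protein p130, had 18.5 FPKM in shZEB1 and 13.4 in shCtrl (interval 1.24 to 1.54). E2F8 had 11.1 FPKM in shZEB1 and 7.63 in shCtrl, and E2F3 18.2 in shZEB1 and 13.4 in shCtrl, both with intervals above 1. E2F7, a repressor like E2F8, lay the other way, with 9.91 FPKM in shZEB1 and 13.2 in shCtrl (interval 0.669 to 0.850). Of these 13 genes the interval lay above 1 for 7 and below 1 for 1, against 27.9% and 21.4% of all measured genes, and the median log2 ratio was 0.16.

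Of 20 target genes of E2F the interval lay above 1 for 14 and below 1 for 1, RRM2, against 27.9% and 21.4% of all measured genes, and the median log2 ratio was 0.22. With TMM scaling it lay above 1 for 12 and below 1 for 2. These genes have many reads and so narrow intervals, with a median FPKM of 76.5 in shZEB1 and 62.4 in shCtrl, against 11.2 in shZEB1 and 11.1 in shCtrl over all measured genes. MCM6, a subunit of the replicative helicase, had 68.0 FPKM in shZEB1 and 48.0 in shCtrl, and MCM2 of the same complex had 70.5 in shZEB1 and 53.9 in shCtrl. By the size rule 0 of them were counted in either direction. CCNE1, CCNE2, E2F1 and CDC25A also stand in the lists above.

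Genes that mark the inhibitors and cyclins for breakdown had intervals above 1 or including 1. SKP2, the subunit that recognises p27 for ubiquitination, had 38.4 FPKM in shZEB1, from 985 reads, and 25.6 in shCtrl, from 545 reads. Its read ratio was 1.87 (interval 1.68 to 2.08), and the ratio of FPKM was 1.499. CKS1B, its cofactor, had 194 FPKM in shZEB1 and 165 in shCtrl. DDB1, an adaptor of the ligases that target p21, had 92.6 FPKM in shZEB1 and 75.8 in shCtrl, and CUL4B, a scaffold of the same ligases, 18.2 in shZEB1 and 15.3 in shCtrl. Of 14 genes the interval lay above 1 for 8 and below 1 for 0, with 6 above it when TMM or DESeq2 factors were used, against 27.9% above and 21.4% below over all measured genes, and the median log2 ratio was 0.12.

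**Figure D4:**
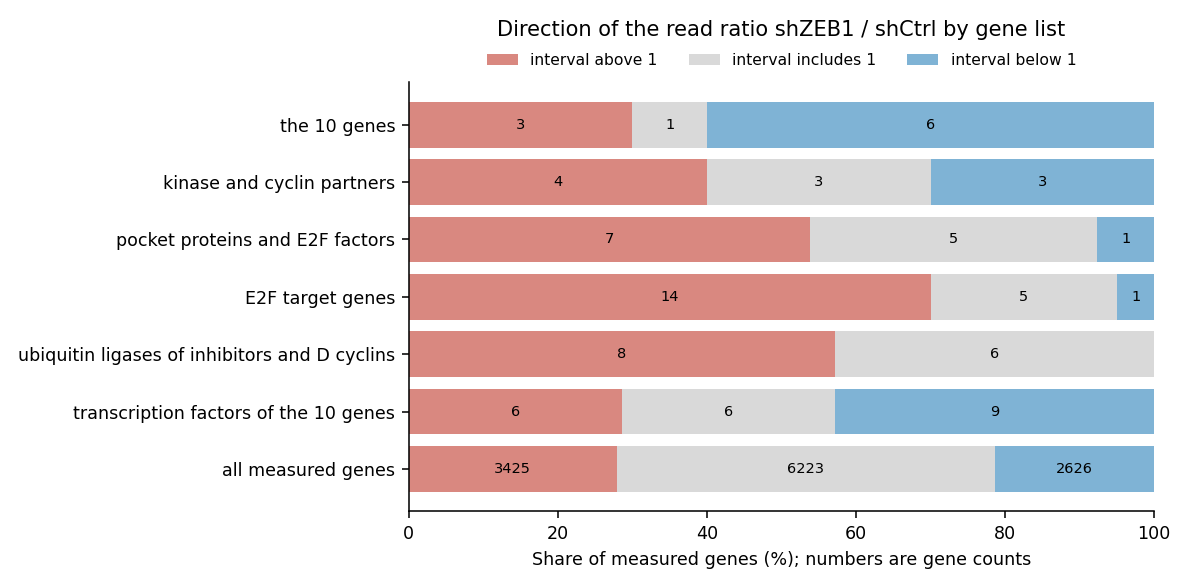
Share of measured genes in each list (horizontal axis, percent) whose read interval lay above 1 (red), included 1 (grey) or lay below 1 (blue) for shZEB1 over shCtrl. Numbers in the bars are gene counts. Among the 10 genes 6 lie below 1, while among E2F targets 14 of 20 lie above.

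Transcription factors known to act on the 10 genes did not move as a block. JUN, which with partners drives CCND1, had 4.75 FPKM in shZEB1 and 30.7 in shCtrl. KLF6 had 18.01 FPKM in shZEB1 and 40.6 in shCtrl, and KLF4 1.58 in shZEB1 and 3.29 in shCtrl. Both are known to activate CDKN1A. FOXO3, an activator of CDKN1B, had 5.31 FPKM in shZEB1 and 6.79 in shCtrl (interval 0.675 to 0.905). BMI1, a Polycomb protein that represses CDKN2A, had 10.8 FPKM in shZEB1 and 6.22 in shCtrl (interval 1.45 to 2.11), and EZH2 of the same system had 43.6 in shZEB1 and 35.8 in shCtrl. MYC, which represses CDKN1A and CDKN2B, had 66.7 FPKM in shZEB1 and 88.0 in shCtrl (interval 0.707 to 0.817). MITF, the melanocyte factor known to act on CDK2 and CDKN2A, had 52.2 FPKM in shZEB1 and 55.1 in shCtrl, and its interval of 0.892 to 1.01 included 1. Of 21 measured factors the interval lay above 1 for 6 and below 1 for 9. Over all measured genes the shares were 27.9% and 21.4%. By the size rule 0 of the 21 were counted as higher and 2 as lower, JUN and KLF6. That rule counted 0.937% of all measured genes as higher and 1.61% as lower. The median log2 ratio of the factors was -0.07.

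**Figure D5:**
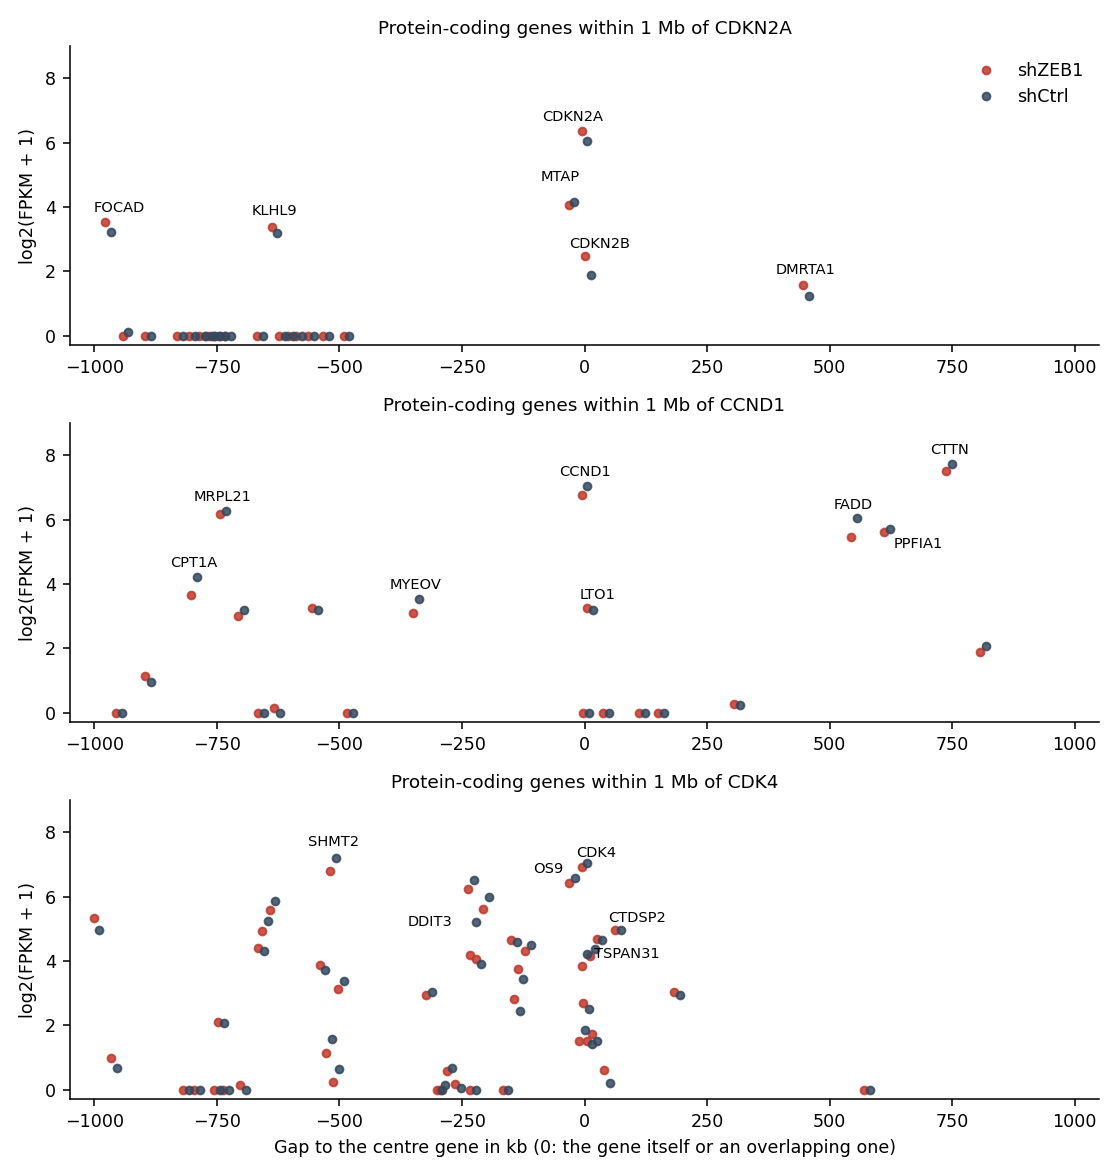
log2(FPKM + 1) of RefSeq protein-coding genes within 1 Mb of CDKN2A, CCND1 and CDK4, against the gap to the centre gene in kb, with shZEB1 in red and shCtrl in blue, set slightly apart sideways. Genes at 0 were not listed or had no reads. CDKN2A lies high, MTAP lower and CDKN2B lower still, close together and next to a row of interferon genes at 0.

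Around CDKN2A, the region whose loss is common in melanoma lines, genes on both sides were measured. MTAP, an enzyme of methionine salvage that lies next to CDKN2A, had 15.7 FPKM in shZEB1, from 651 reads, and 16.7 in shCtrl, from 712 reads. Its interval of 0.850 to 1.05 included 1. DMRTA1, on the other side at 452 kb, had 1.95 FPKM in shZEB1 and 1.33 in shCtrl. KLHL9 had 9.35 FPKM in shZEB1 and 8.18 in shCtrl, and FOCAD 10.5 in shZEB1 and 8.34 in shCtrl. Of 22 protein-coding genes within 1 Mb, 6 were listed and 5 measured. HACD4, the listed gene under the minimum, was at 0 FPKM in shZEB1 and 0.08 in shCtrl, and the type I interferon genes of the cluster were in neither file. Transcript levels do not give copy number, so loss of some copies and lower transcription cannot be told apart. The CDKN2A reads in both libraries are unlike the deletion known for MDA-MB-231, the line on the label. Whether the cells are that line was not tested.

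Around CCND1, 11 of 20 protein-coding genes within 1 Mb were measured. The interval lay below 1 for 6 and above 1 for 0, against 21.4% and 27.9% of all measured genes, and included 1 for the others, among them TESMIN with 37 reads in shZEB1 and 24 in shCtrl (read ratio 1.60, interval 0.930 to 2.79). FADD, an adaptor of death receptors, had 42.7 FPKM in shZEB1 and 64.8 in shCtrl (interval 0.599 to 0.731), and CPT1A, which carries fatty acids into mitochondria, had 11.7 in shZEB1 and 17.8 in shCtrl (interval 0.606 to 0.759). CTTN, an actin-binding protein, had 180 FPKM in shZEB1 and 210 in shCtrl. The median FPKM of the 11 was 8.46 in shZEB1 and 10.5 in shCtrl, far below CCND1 itself.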

How the data were processed

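Poly(A)-selected RNA was sequenced on a DNA nanoball platform in 1 shZEB1 and 1 shCtrl library. Per the submitters' processing notes, the genome build was hg38 and the tools named were RSEM 1.2.8, Bowtie2 2.2.5, DESeq and HISAT2 2.1.0. The authors deposited an expected count (estimated reads) and an FPKM value per gene and library, per the file headers, together with a gene length. Genes absent from a file were entered at 0. Of 15217 numeric identifiers, 15183 matched a RefSeq symbol (GRCh38.p14), which gave coordinates.

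Read ratios used expected counts rounded to whole numbers and divided by library totals, with 95% exact conditional binomial (Clopper-Pearson) intervals. Counting by the size rule was tried on simulated data with known fold changes. These data held counting error only, without spread between cultures, and the folds set in them were larger than that of any of the 10 genes. Intervals and floors cover counting error only, since PCR reads without molecular identifiers are not independent molecules. Exon overlaps and shared 50-base stretches came from GENCODE release 29. The 10 genes and all lists were chosen with earlier results of these data known. Named were the 10 genes, ZEB1, up to 4 measured genes per list with the largest absolute log2 ratio, and neighbours within 1 Mb, apart from some genes and lists not reported here. Other list genes (RB1, RRM2, EZH2, FOXO3, MYC, MITF, EGFR, VIM, CD44 and CCND2 among them) were named after their values were seen. Alternatives were other pseudocounts, minimums, folds and intervals, TPM, a median ratio, DESeq2 1.42.0 size factors and TMM factors of edgeR 4.0.16. Neither tool's test was run, since 1 library per group gives no dispersion. Scripts ran under R 4.3.3 and Python 3.11.15 with SciPy 1.17.1, pandas 2.3.3 and NumPy 2.4.6.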

Additional observations from a re-analysis of the deposited data

How the results depend on the processing

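No paired analysis was possible because each group has 1 library, and for the same reason no library could be left out. The log2 ratios of the 10 genes kept their sign and stayed within their counting intervals in all 50 combinations of a gene with a pseudocount of 0.1, TPM, the median ratio, TMM or DESeq2 factors. The scalings shifted all genes by less than the smallest absolute log2 ratio of the 10, that of CDK4, so signs could hardly change. TMM and DESeq2 factors were nearly the same scaling, and none of these settings covers the spread between cultures. CCND3 ranged from -0.82 to -0.69 and CDKN2B from 0.58 to 0.75. The read interval lay above 1 for 3 of the 10 genes and below 1 for 6 under those scalings, except that CDK4 was lost with TPM and with a 99% interval, which left 5. With an FPKM of at least 5, CDKN2B and CDKN1C were not measured, and 2 lay above 1.

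By the size rule 0 of the 10 were counted under each alternative but a fold of 1.5, which counted 1 as higher (CDKN2B) and 2 as lower (CDKN1B and CCND3). Over all measured genes the rule counted 115 higher and 198 lower. A fold of 1.5 gave 611 and 664, TMM 308 and 333, DESeq2 factors 309 and 332, and a pseudocount of 0.1 311 and 294. The TMM and DESeq2 settings worked on reads with a smaller pseudocount, so their counts do not show the effect of scaling alone. The higher count was 44 with an FPKM of at least 5 and 52 with at least 1 in both libraries. The scalings moved the median log2 ratio of all genes by at most 0.05. CDKN1C, with 58 and 43 reads, is limited by depth.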

Other observations

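Genes near CDK4 on chromosome 12 lay in both directions. Of 43 protein-coding genes within 1 Mb, 28 were measured, and the read interval lay above 1 for 5 and below 1 for 10. Over all measured genes it lay above 1 for 27.9% and below 1 for 21.4%. DDIT3, a transcription factor of the stress response, had 17.3 FPKM in shZEB1, from 133 reads, and 35.7 in shCtrl, from 283 reads (interval 0.393 to 0.600). SHMT2, which makes glycine in mitochondria, had 110 FPKM in shZEB1 and 146 in shCtrl. OS9, a lectin of protein quality control in the endoplasmic reticulum that can be amplified together with CDK4 in tumours, had 83.9 FPKM in shZEB1 and 93.6 in shCtrl (interval 0.848 to 0.959). CTDSP2, a phosphatase gene on the other side, had 30.1 FPKM in shZEB1 and 30.2 in shCtrl, and its interval of 0.922 to 1.08 included 1. PRIM1, a subunit of the primase that starts DNA chains, lay the other way, with 39.0 FPKM in shZEB1 and 30.3 in shCtrl (interval 1.13 to 1.45). These genes were picked from that window after their values were seen.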
